A study of Mus musculus with 6 samples.

Results

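The genes described here are 10 targets and partners of the NRF2 antioxidant programme and of iron storage, measured in macrophages grown from mouse bone marrow. They were chosen by symbol (Nfe2l2, Gclc, Gclm, Txnrd1, Prdx1, Srxn1, Hmox1, Ftl1, Fth1 and Me1), and all 10 were found among the 17313 genes of the deposited table. The KO libraries (3) came from Hdac2 fl/fl mice that also carried LysM-Cre, and the WT libraries (3) from Hdac2 fl/fl mice without Cre, so floxed alleles were shared by both groups. All mice were on the C57BL/6 background and had received LLC1 cells, a Lewis lung carcinoma line, by vein. Marrow was taken on day 20 and grown into macrophages, and polyadenylated RNA was sequenced as single reads of 72 bases. LysM-Cre is a Cre recombinase placed in the lysozyme gene Lyz2 and acts in myeloid cells, so cells of other lineages keep the floxed gene. The sources used here do not give the age or sex of the mice, or say that the libraries of a group were from different mice. P-values therefore measure only how these samples spread, which may be technical.

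NRF2, the protein of Nfe2l2, is a transcription factor that KEAP1 holds in the cytoplasm and delivers for degradation. Oxidants and electrophiles release it, and it then pairs with small MAF proteins on antioxidant response elements and raises genes for glutathione synthesis, thioredoxin recycling, haem breakdown, ferritin and NADPH supply. Macrophages use the haem and ferritin arm when they take up dying red cells, storing the released iron in ferritin or exporting it. HDAC2, the deacetylase targeted in the KO mice, removes acetyl groups from histones and other proteins.

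Short stretches of the promoters show which of these genes carry the letters of an antioxidant response element next to their start. The letters searched were TGACNNNGC on both strands, in windows from 250 bases before to 50 bases after each start annotated by RefSeq (GRCm38.p6). A window was available for 8 of the 10 genes, and 6 of these genes held a match, in 6 of the 12 windows of the 8 genes. Of all 32851 promoter windows of the same length, 12.4% held one. Below, each match stands in capitals, written along the gene's own strand with 10 flanking bases on each side, and positions count from the start as 1 with no position 0.
Nfe2l2: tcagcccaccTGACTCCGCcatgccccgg
Gclm: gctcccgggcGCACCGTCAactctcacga
Txnrd1: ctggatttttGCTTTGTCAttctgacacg
Prdx1: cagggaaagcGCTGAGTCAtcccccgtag
Srxn1: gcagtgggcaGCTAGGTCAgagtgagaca
Me1: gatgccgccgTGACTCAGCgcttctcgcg
The match began at position -240 in Nfe2l2 (chr2:75704885-75704913, minus strand), at -134 in Gclm (chr3:122245413-122245441, plus strand) and at -92 in Txnrd1 (chr10:82859104-82859132, plus strand). It began at -133 in Prdx1 (chr4:116685456-116685484, plus strand), at 29 in Srxn1 (chr2:152105542-152105570, plus strand) and at -6 in Me1 (chr9:86695902-86695930, minus strand). In Gclm, Txnrd1, Prdx1 and Srxn1 the letters TGAC lie on the opposite strand. The windows of Ftl1 and Fth1 held no match, which says only that these letters are not in those windows.

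Prdx1 and Me1, which stood on opposite sides of the comparison described below, had the same 9 letters, TGACTCAGC, once read on either strand. These 9 letters were in 0.454% of all promoter windows. The first 7 of them, TGACTCA, are also the letters bound by AP-1 factors, so such a match cannot be told from an AP-1 motif. A longer stretch is shown for this pair, from position -193 to -65 in Prdx1 (chr4:116685406-116685534, plus strand) and from -66 to 3 in Me1 (chr9:86695912-86695980, minus strand), with the shared letters in capitals.
Prdx1: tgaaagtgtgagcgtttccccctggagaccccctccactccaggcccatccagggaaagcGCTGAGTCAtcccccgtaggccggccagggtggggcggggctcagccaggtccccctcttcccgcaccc
Me1: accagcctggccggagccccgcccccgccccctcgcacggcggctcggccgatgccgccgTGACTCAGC

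The ferritin messages are controlled a second time, in translation. Iron regulatory proteins bind a hairpin in their leader, the iron-responsive element, when iron is scarce, and block the ribosome, so the RNA levels reported here are not levels of ferritin protein. The element's loop letters, CAGTG, were found at position 99 of the 224-base leader of Fth1 (chromosome 19) and at position 90 of the 253-base leader of Ftl1 (chromosome 7), in the shortest principal transcript of each in GENCODE M21. The stretches around them, with the loop letters in capitals, were identical at 26 of 29 positions.
Fth1: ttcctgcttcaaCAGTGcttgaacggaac
Ftl1: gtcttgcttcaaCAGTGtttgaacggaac

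In scaled counts, most of these antioxidant, haem and ferritin genes lay slightly lower in KO, and Me1 lay about 2.11 times higher. Mean values of genes reached at most 0.85 scaled counts per exonic base, with a median of 0.0409. Whether duplicate removal held down abundant genes was not tested, so sizes may not be comparable between abundant genes and Me1. In 8 of the 10 genes the highest KO value was under the lowest WT value (Nfe2l2, Gclc, Txnrd1, Prdx1, Srxn1, Hmox1, Ftl1 and Fth1), in Me1 the lowest KO value was over the highest WT value, and Gclm overlapped. Over all 13260 tested genes the KO values were separate and lower in 13.4%, and separate and higher in 16.1%. Among the 9839 tested genes with a mean value of at least 100, these shares were 16% and 12.7%. No single gene passed the test, which was limma on log2(scaled count + 1) with Benjamini-Hochberg adjustment over all tested genes at 0.05, two-sided. It called 0% of all genes (smallest adjusted p = 0.158), and the adjusted p of the 10 genes ran from 0.158 to 0.872. At an unadjusted p under 0.05 there were 7 of the 10 genes lower and 1 higher, against 9.68% of all genes lower and 14.7% higher. The KO mean was lower in 9 of the 10 genes and higher in 1, against 50.9% and 49.1% of all tested genes. The median log2 difference, KO minus WT, was -0.18 over the 10 genes and -0.0046 over all tested genes. The 10 genes were chosen with earlier results of these data known. Their counts beside the shares of all genes, here and below, are therefore descriptive and not an independent test.

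**Figure D1:**
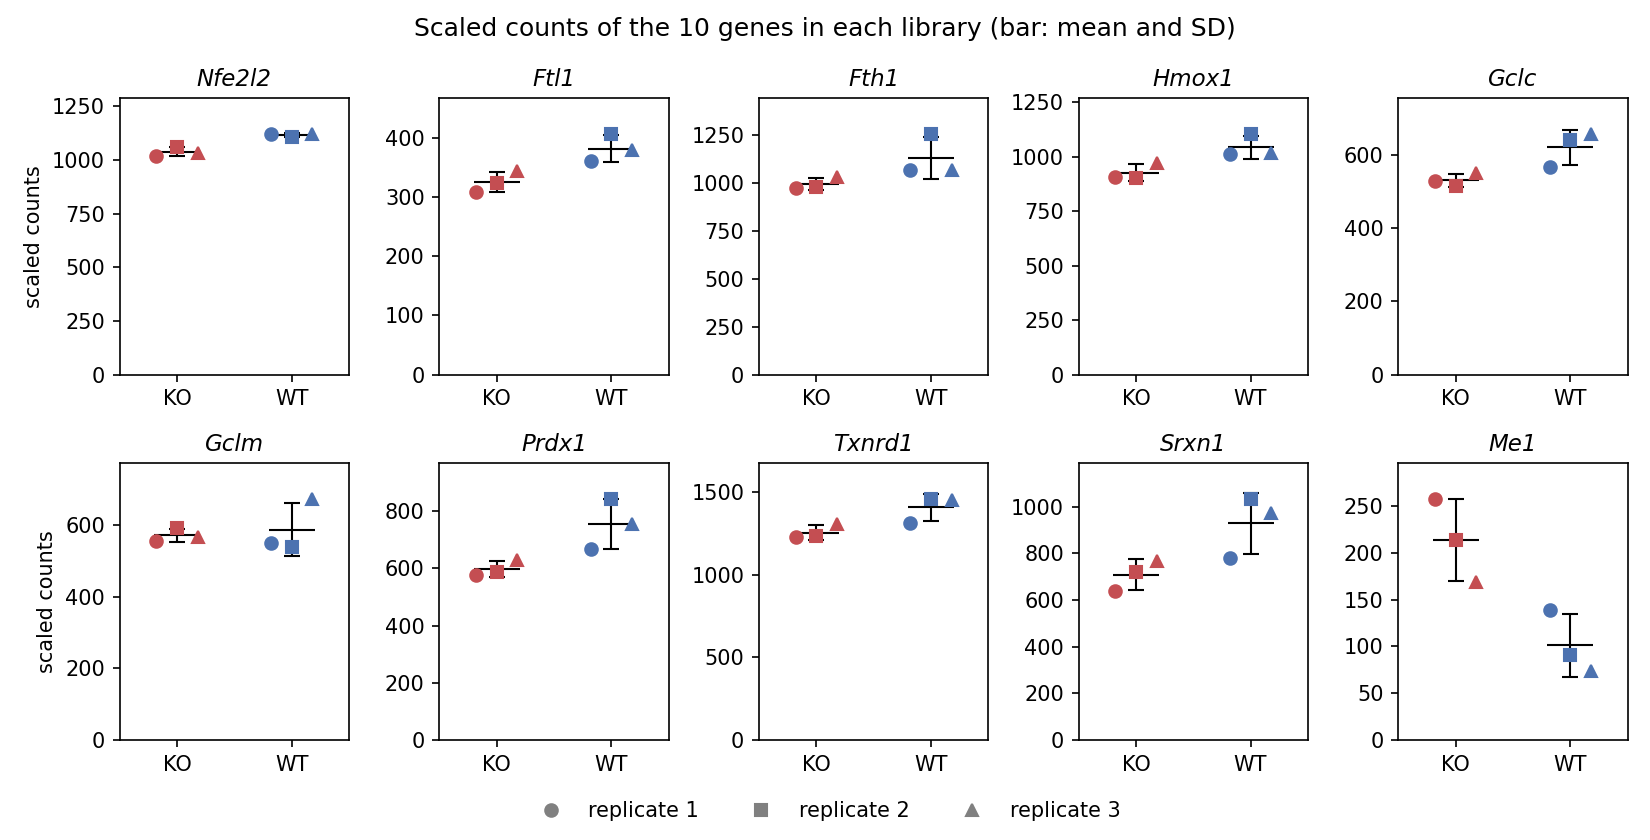
Scaled counts of each of the 10 genes (vertical axes, each starting at 0) in the 3 KO and the 3 WT libraries, with the replicate number as the symbol and a bar for the mean and SD. In 8 genes all KO points lie below all WT points, Gclm overlaps, and Me1 lies higher in all KO libraries, at 169 to 257 against 74 to 139 in WT.

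Values are called scaled counts here, because the authors' read counts had been rescaled library by library and rounded. They summed to between 5704313 and 5837994 per library. Hdac2, which checks the group names, stood at 392, 387 and 375 scaled counts in KO and at 534, 482 and 518 in WT, which puts the mean of KO at 0.752 times that of WT (log2 difference -0.41 ± 0.057 SE, limma adjusted p = 0.158). The Hdac2 difference was -0.47 against WT 1 alone and -0.38 without WT 1 (limma adjusted p = 0.0142). The libraries also differed in a way the labels do not give. Xist, the RNA of the silenced X chromosome in female cells, stood at 4726, 4997 and 3298 in KO 1, KO 2 and KO 3, and at 5243, 0 and 74 in WT 1, WT 2 and WT 3. The Y-linked gene Kdm5d was at 5, 0 and 0 in KO and at 34, 473 and 482 in WT, so WT 1 and WT 3 held reads of both kinds. KO 1 held a few as well. A principal component analysis of the tested genes put 78.6% of the variance on its first axis, where the KO libraries stood at -51.5 to -19.9, WT 1 beside them at -12.7, and WT 2 and WT 3 at 72 and 54.6. Each log2 difference is therefore also given against WT 1 alone and, where leaving out WT 1 changed the call, without it. Without WT 1, genotype and this split cannot be told apart.

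Nfe2l2 (ENSMUSG00000015839, chr2:75675513-75704641 in mm10) stood at 1020, 1063 and 1035 scaled counts in the KO libraries, against 1120, 1107 and 1121 in the WT libraries. The 3 WT values lay within 14 scaled counts of each other, and all KO values were below them. The means were 1039 ± 21.8 in KO and 1116 ± 7.81 in WT (SD, n = 3 each), 6.87% lower in KO. The log2 difference was -0.10 ± 0.039 (SE), with a limma adjusted p of 0.186. It was as large, at -0.11, against WT 1 alone. Under cyclic loess, which removes shifts that depend on abundance, it was -0.03. The differences of Gclc, Ftl1, Prdx1, Srxn1 and Me1, described below, moved less under that setting. They were -0.19, -0.22, -0.29, -0.33 and 1.06 there.

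Of the glutathione pair, Gclc separated the groups and Gclm overlapped. Gclc encodes the catalytic subunit of glutamate-cysteine ligase, the enzyme that limits glutathione synthesis, and Gclm its modifier subunit. Gclc (ENSMUSG00000032350, chr9:77754535-77794485) was at 528, 514 and 550 scaled counts in KO and at 566, 640 and 657 in WT, with the groups apart and WT 1 lowest among the WT libraries. Its means were 531 ± 18.1 in KO and 621 ± 48.4 in WT (SD, n = 3 each), a log2 difference of -0.22 ± 0.07 (SE, limma adjusted p = 0.158). It was -0.09 against WT 1 alone and -0.29 without WT 1 (limma adjusted p = 0.024). Gclm (ENSMUSG00000028124, chr3:122245557-122270732) was at 556, 592 and 569 in KO and at 551, 540 and 673 in WT. All KO values of Gclm lay between the 2 lower WT values and WT 3, so the groups overlapped. The Gclm log2 difference of -0.03 ± 0.093 (limma adjusted p = 0.872) had no stable sign and was 0.07 without WT 3 and 0.05 against WT 1 alone.

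Because both subunits form 1 enzyme, their ratio was also compared, a measure that does not depend on how a library was scaled. The Gclc to Gclm ratio was 0.95, 0.868 and 0.967 in KO and 1.03, 1.19 and 0.976 in WT. The groups did not overlap, but KO 3 and WT 3 nearly met. An exact two-sided permutation test over the 6 libraries gave p = 0.1, the smallest this design allows, and 0.3 after Benjamini-Hochberg adjustment over the 3 ratios compared, all chosen after the values were seen.

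The thioredoxin and peroxiredoxin genes held the 2 largest lower differences among the 10, those of Srxn1 and Prdx1. Prdx1 encodes a peroxiredoxin that reduces hydrogen peroxide, Srxn1 the sulfiredoxin that repairs over-oxidized peroxiredoxins, and Txnrd1 the cytosolic thioredoxin reductase that keeps thioredoxin, and through it peroxiredoxins, reduced. Srxn1 (ENSMUSG00000032802, chr2:152105516-152111376) stood at 637, 722 and 768 scaled counts in KO and at 782, 1032 and 972 in WT. KO 3 and WT 1 were close to each other, and WT 2 and WT 3 stood well above both. The means of Srxn1 were 709 ± 66.5 in KO and 929 ± 131 in WT (SD, n = 3 each), 23.7% lower in KO. Its log2 difference was -0.38 ± 0.12 (SE, limma adjusted p = 0.159), -0.15 against WT 1 alone and -0.50 without WT 1 (limma adjusted p = 0.0168).

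Prdx1 (ENSMUSG00000028691, chr4:116685544-116700822) was at 576, 587 and 629 in KO and at 669, 842 and 754 in WT. The order of the libraries was the same as for Srxn1, from KO 1 at the low end to WT 2 at the high end. Its mean was 597 ± 28 in KO and 755 ± 86.5 in WT (SD, n = 3 each), 20.9% lower in KO, a log2 difference of -0.33 ± 0.091 (SE, limma adjusted p = 0.158). Against WT 1 alone it was -0.16, and without WT 1 it was -0.42 (limma adjusted p = 0.0162). The Srxn1 to Prdx1 ratio was 1.11, 1.23 and 1.22 in KO and 1.17, 1.23 and 1.29 in WT (exact two-sided permutation p = 0.5, adjusted over the 3 ratios 0.5), with the groups overlapping.

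Txnrd1 (ENSMUSG00000020250, chr10:82833951-82897712) was at 1225, 1231 and 1304 in KO and at 1313, 1455 and 1453 in WT. KO 3 and WT 1 nearly met, and the remaining WT libraries lay higher. The log2 difference was -0.17 ± 0.059 (SE, limma adjusted p = 0.169), and it was -0.07 against WT 1 alone, -0.21 without WT 1 (limma adjusted p = 0.0464) and -0.08 under cyclic loess. Of 3 annotated genes that overlap Txnrd1, none exceeded 69 scaled counts in a library.

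Haem breakdown and ferritin lay lower together. Hmox1 encodes haem oxygenase 1, which opens the haem ring and frees its iron. It (ENSMUSG00000005413, chr8:75093621-75100589) stood at 906, 902 and 972 scaled counts in KO and at 1010, 1103 and 1015 in WT. WT 2 was highest and WT 1 and WT 3 differed by little, with all KO libraries below them. The means were 927 ± 39.3 in KO and 1043 ± 52.3 in WT (SD, n = 3 each), and the log2 difference was -0.17 ± 0.057 (SE, limma adjusted p = 0.164). Against WT 1 alone it was -0.12, and under cyclic loess -0.10.

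Fth1 encodes the ferritin heavy chain, which oxidizes iron on entry, and Ftl1 the light chain, which helps the mineral core form. Fth1 (ENSMUSG00000024661, chr19:9980598-9985098) was at 972, 975 and 1032 in KO and at 1065, 1253 and 1067 in WT. WT 2 stood apart from the other libraries for this gene. Its log2 difference was -0.18 ± 0.076 (SE, limma adjusted p = 0.212), with -0.10 without WT 2, -0.10 against WT 1 alone and -0.11 under cyclic loess. Ftl1 (ENSMUSG00000050708, chr7:45457944-45459884) was at 309, 324 and 343 in KO and at 360, 406 and 379 in WT, 14.8% lower in the KO mean. The Ftl1 log2 difference was -0.23 ± 0.071 (SE, limma adjusted p = 0.158), and it was -0.15 against WT 1 alone.

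The proportion of the 2 chains overlapped between the groups. The Fth1 to Ftl1 ratio was 3.15, 3.01 and 3.01 in KO and 2.96, 3.09 and 2.82 in WT (exact two-sided permutation p = 0.4, adjusted over the 3 ratios 0.5). Ferritin genes have processed copies that can take reads from them. The table held 3 named ferritin copies, none above 9 scaled counts in a library, and how reads matching several places were counted is not stated in any source used here, so the ferritin levels are uncertain to that extent.

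Me1 encodes the cytosolic malic enzyme, which makes NADPH while turning malate into pyruvate. Me1 (ENSMUSG00000032418, chr9:86581371-86695953) stood at 257, 214 and 169 scaled counts in KO and at 139, 91 and 74 in WT. The groups did not overlap, and WT 1 was the highest WT library. Its means were 213 ± 44 in KO and 101 ± 33.7 in WT (SD, n = 3 each), a log2 difference of 1.10 ± 0.27 (SE, limma adjusted p = 0.158). The difference was 0.59 against WT 1 alone and 1.35 without WT 1 (limma adjusted p = 0.00875).

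**Figure D2:**
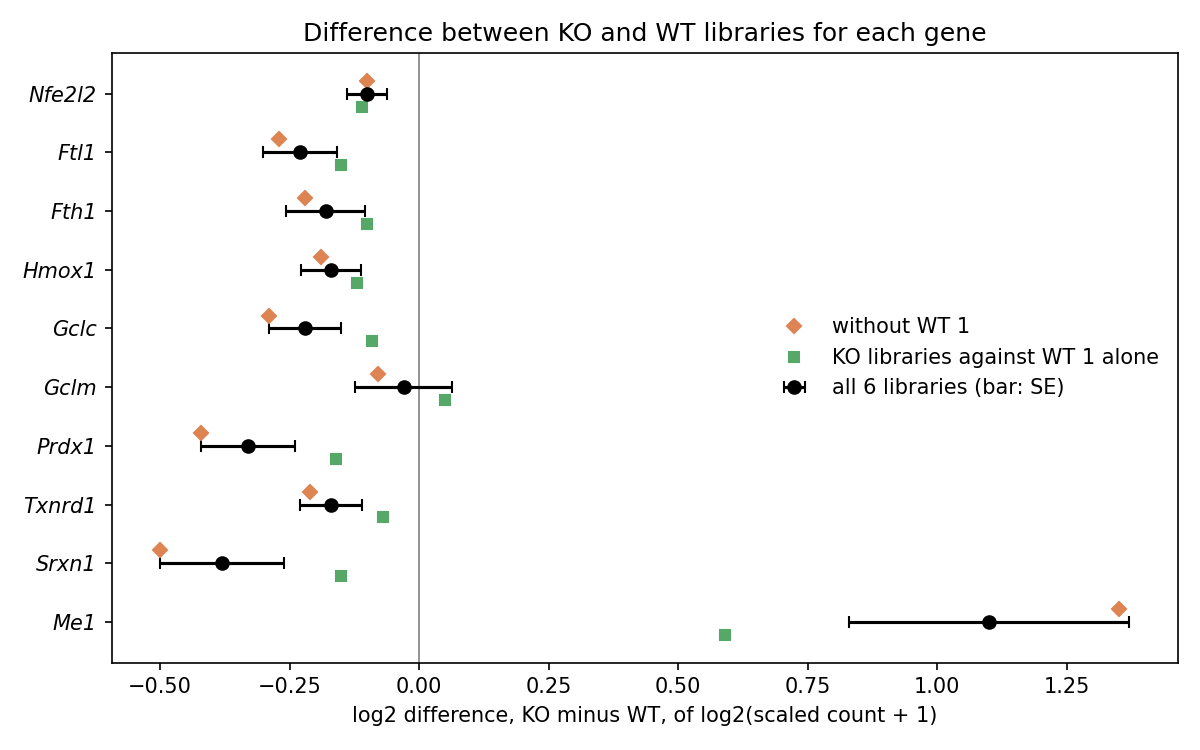
Log2 difference between KO and WT libraries for each of the 10 genes (horizontal axis), with all 6 libraries (circle, bar for SE), without WT 1 (diamond) and for the KO libraries against WT 1 alone (square). For 7 of the 8 genes with separate and lower KO values the square lies nearer 0 than the circle, Nfe2l2 keeps its value at -0.10 to -0.11, and Me1 lies at 0.59 to 1.35.

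The weight of WT 1 was examined over the whole set. In the fit without WT 1, 4 of the 10 genes passed the limma threshold as lower (Gclc, Txnrd1, Prdx1 and Srxn1) and 1 as higher (Me1), against 5.07% of all genes lower and 12.8% higher. With WT 2 as the only WT library, 3 passed as lower (Fth1, Prdx1 and Srxn1) and Me1 again as higher, against 4.12% and 11.8% of all genes. With WT 1 as the only WT library none passed, although the same 8 genes had every KO library below WT 1, where 24.6% of all genes did. Gclm and Me1 had every KO library above WT 1, as did 28.4% of all genes. WT 1 lay nearer to the KO mean than to the mean of WT 2 and WT 3 in 7 of the 10 genes, a share close to the 66.4% of all genes. The exceptions were Nfe2l2, Ftl1 and Hmox1.

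Levels were compared between genes only per length. On the union of all annotated exons, Hmox1 had the highest level of the 10, at 562 scaled counts per kilobase averaged over the 6 libraries, placing it above 99.8% of genes. Fth1, Srxn1, Nfe2l2 and Ftl1 followed at 306, 290, 284 and 264, then Prdx1 at 222, Txnrd1 at 188, Gclc at 153, Gclm at 92.2 and Me1 at 40.9. Thus 7 of the 10 genes were among the 10% of genes with the highest level per kilobase, and Me1 was at percentile 50. The order depended on the length used, since Fth1, Prdx1 and Gclm have long annotated forms. Per kilobase of the shortest principal transcript, Fth1 came first at 1142, Prdx1 second at 771 and Hmox1 after them at 628, and Me1 remained lowest at 47.9. Both orders take no account of duplicate reads, whose removal is not stated in any source used here.

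Markers of other cells differed between the same libraries. The culture had the macrophage markers (8 of 8 in the table, including Adgre1, Csf1r and Cd68). Their summed level was 9567 to 9989 scaled counts in KO and 10452 to 11102 in WT. Of the 8 genes, 7 were lower in every KO library than in any WT library, as were 13.4% of all tested genes. Lyz2 was among the 7, but the Cre is placed in this gene and only the KO mice carried it. A lower macrophage level and an effect of that allele cannot be told apart in Lyz2. The remaining marker, Mertk, overlapped, at 1100, 1140 and 988 in KO and 1025, 851 and 980 in WT. The 12 fibroblast and marrow stroma markers summed to 18270, 16705 and 14256 in KO 1, KO 2 and KO 3, and to 13920, 5818 and 6325 in WT 1, WT 2 and WT 3. Of these, 6 were higher in every KO library than in any WT library, as were 16.1% of all tested genes. Lum and Lepr were at 0 in at least 1 library. In bulk RNA, fewer cells of a type and less RNA per cell cannot be told apart.

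The order of the 6 libraries in Ftl1, Fth1, Prdx1, Txnrd1 and Srxn1 was exactly the reverse of their order in the summed stromal markers, 5 of the 10 genes, where 3.63% of all tested genes had this reversed order. Some steps were near ties. Txnrd1 was at 1455 in WT 2 and 1453 in WT 3. Fth1 was at 972 in KO 1 and 975 in KO 2, and at 1065 in WT 1 and 1067 in WT 3. Exactly the same order as the stromal sum was found in 0 of the 10 genes and in 3.55% of all genes. Me1 had the libraries in the stromal order except that WT 2 and WT 3 changed places. Nfe2l2, Hmox1, Gclc and Gclm had other orders. The part of the cell mixture in the differences of these genes was not tested. Of the remaining marker lists, 1 of 9 erythroid markers was in the table (Ermap, at 11 to 14 in KO and 1 to 6 in WT). The other erythroid symbols listed were not found in it. The neutrophil list was likewise represented by S100a8 alone, at 9 to 15 in KO and 20 to 26 in WT. The 5 endothelial markers summed to 166 to 183 in KO and 95 to 194 in WT, with Emcn and Tek at 0 in at least 1 library. Both epithelial or lung carcinoma markers in the table summed to 74 to 101 in KO and 2 to 25 in WT, with Cdh1 at 0 in 1 library. Nearly all of this sum was Krt19, at 95, 73 and 75 in KO and 22, 10 and 1 in WT. Cdh1 overlapped, at 6, 1 and 3 in KO and 3, 0 and 1 in WT. The dendritic cell pair Zbtb46 and Clec9a, 2 of 6 listed, summed to 44 to 52 in KO and 18 to 41 in WT. That sum was nearly all Zbtb46. Clec9a went the other way, at 1, 1 and 0 in KO and 4, 2 and 5 in WT. Ms4a1, a B cell gene, did not exceed 4 in any library and was at 0 in 1.

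**Figure D3:**
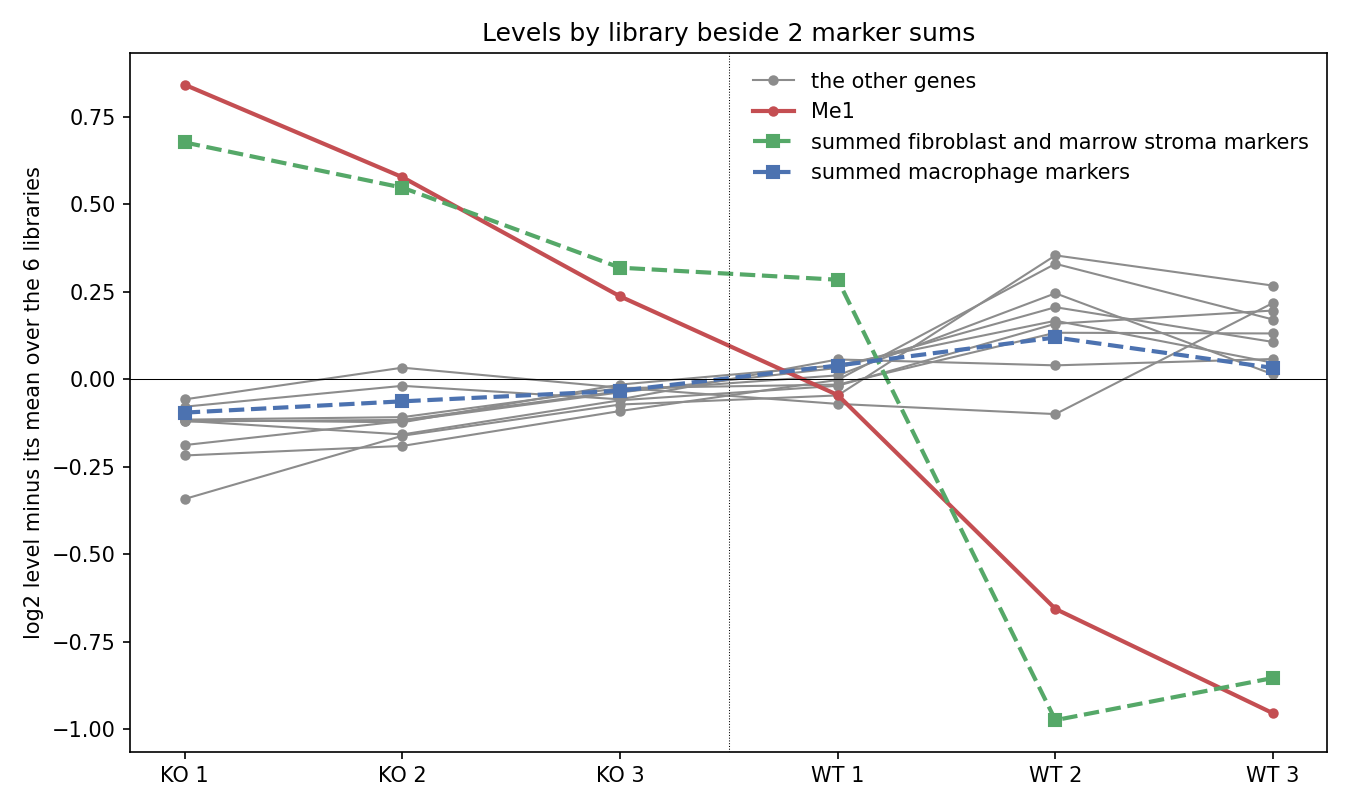
Log2 level of each of the 10 genes and of the summed macrophage and stromal markers in each library (horizontal axis, KO left of WT), each minus its own mean over the 6 libraries. Me1 and the stromal sum are highest in KO 1 and low in WT 2 and WT 3, with WT 1 between, while most of the other genes run the other way within a narrower range.

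Around the 10 genes, 7 lists were compared, also chosen with earlier results of these data known. They are to be read against all tested genes, of which 50.9% had a lower KO mean. At an unadjusted limma p under 0.05, 9.68% of all tested genes were lower and 14.7% higher. The regulators of NRF2 had log2 differences from -0.24 to 0.67, with a median of -0.06. Of 16 listed, 15 were tested, and with limma 0 were called in either direction, with 1 higher and 1 lower at an unadjusted p under 0.05. The 2 highest were Maff and Bach2, named after their values were seen. Maff, a small MAF gene, was at 123, 113 and 144 scaled counts in KO and at 123, 74 and 54 in WT, overlapping through WT 1. Its log2 difference was 0.67 ± 0.3 (SE, limma adjusted p = 0.235), 0.03 against WT 1 alone and 0.98 without WT 1 (limma adjusted p = 0.0198). Bach2, a relative of Bach1, was at 64, 78 and 68 in KO and at 64, 43 and 52 in WT, a log2 difference of 0.41 ± 0.19 (SE, limma adjusted p = 0.239) and of 0.12 against WT 1 alone. Keap1, the adaptor that marks NRF2 for degradation, was at 678, 622 and 704 scaled counts in KO and at 693, 761 and 688 in WT, overlapping. Bach1, a repressor that competes for the same elements, was at 1090, 1082 and 1108 in KO and at 1058, 1196 and 1146 in WT, also overlapping, and its log2 difference of -0.05 turned to 0.05 against WT 1 alone and 0.03 under cyclic loess. The coactivator gene Crebbp was at 908, 890 and 919 in KO and at 820, 840 and 814 in WT, with no overlap. Its log2 difference was 0.14 ± 0.04 (SE, limma adjusted p = 0.158), and it was also 0.14 against WT 1 alone. Mafk, a small MAF partner, was at 352, 362 and 394 in KO and at 391, 484 and 436 in WT, where KO 3 and WT 1 crossed.

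Other NRF2 target genes had a lower KO mean in 21 of 26 tested, against 50.9% of all genes, and their median was -0.14. Limma called 0, and 9 were lower and 1 higher at an unadjusted p under 0.05, against 9.68% and 14.7% of all genes. Taldo1, a transaldolase of the pentose phosphate pathway, was at 602, 593 and 623 in KO and at 658, 772 and 732 in WT, a log2 difference of -0.25 ± 0.069 (SE, limma adjusted p = 0.158). It was -0.12 against WT 1 alone and -0.31 without WT 1 (limma adjusted p = 0.0177). A pair of genes widely used as NRF2 reporters stood differently. Nqo1, a quinone reductase, was low, at 63, 69 and 57 in KO and 55, 54 and 46 in WT, with no overlap and a log2 difference of 0.28 ± 0.15 (SE, limma adjusted p = 0.294) that was 0.19 against WT 1 alone. Slc7a11, the cystine importer, overlapped, at 145, 155 and 89 in KO and 129, 108 and 159 in WT. Gstm2, a glutathione transferase whose near-identical relatives may take some of its reads, stood at 149, 141 and 123 in KO and 89, 47 and 60 in WT, a log2 difference of 1.11 ± 0.24 (SE, limma adjusted p = 0.158). The Gstm2 difference was 0.62 against WT 1 alone and 1.35 without WT 1 (limma adjusted p = 0.00399). Gstm1, a relative in the same list, went the other way, with all KO values below all WT values.

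Glutathione genes lay on both sides, 13 of 26 with a lower KO mean (50.9% of all genes) and 13 with a higher one, and their median was -0.00. Limma called 0, and 8 were higher and 3 lower at an unadjusted p under 0.05, against 14.7% and 9.68% of all genes. Mgst3, a microsomal glutathione transferase, was at 155, 155 and 160 in KO and 195, 228 and 213 in WT, a log2 difference of -0.43 ± 0.084 (SE, limma adjusted p = 0.158) that was -0.31 against WT 1 alone and -0.49 without WT 1 (limma adjusted p = 0.0151). Gpx7, a glutathione peroxidase family member of the endoplasmic reticulum, was at 92, 79 and 65 in KO and 52, 18 and 20 in WT. Its libraries with few scaled counts were WT 2 and WT 3, those with the lowest stromal sums. The Gpx7 log2 difference was 1.51 ± 0.42 (SE, limma adjusted p = 0.158), 0.57 against WT 1 alone and 1.98 without WT 1 (limma adjusted p = 0.00255).

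Among 22 other antioxidant enzymes 13 had a lower and 9 a higher KO mean, a share near the 50.9% of all genes with a lower one, and the median was -0.05. Limma called 0, and 3 lay in each direction at an unadjusted p under 0.05, against 14.7% of all genes higher and 9.68% lower. The sestrins Sesn2 and Sesn3, stress proteins that restrain growth signalling, had higher values in KO. Sesn2 was at 632, 613 and 609 in KO and 553, 521 and 463 in WT, and Sesn3 was at 701, 725 and 577 in KO and 573, 359 and 391 in WT. Both separated the groups, and their log2 differences were 0.27 ± 0.074 and 0.62 ± 0.19 (SE, limma adjusted p = 0.158 for each), and 0.16 and 0.21 against WT 1 alone. Without WT 1 they were 0.33 and 0.82 (limma adjusted p = 0.0277 for Sesn2 and 0.00651 for Sesn3).

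Iron transport genes had a median of -0.08 over 21 tested genes, 12 with a lower and 9 with a higher KO mean, near the 50.9% of all genes with a lower one. Limma called 0, and 2 were higher and 4 lower at an unadjusted p under 0.05, against 14.7% and 9.68% of all genes. Tfrc, the transferrin receptor that brings iron in, was at 747, 769 and 674 in KO and 801, 641 and 887 in WT, overlapping. Slc40a1, the iron exporter ferroportin, was at 804, 804 and 784 in KO and 830, 824 and 937 in WT, without overlap, a log2 difference of -0.11 ± 0.062 (SE, limma adjusted p = 0.308) that was -0.06 against WT 1 alone. Trf, the iron carrier transferrin, was at 1149, 1138 and 1160 in KO and 1264, 1506 and 1397 in WT, a log2 difference of -0.27 ± 0.07 (SE, limma adjusted p = 0.158). It was -0.14 against WT 1 alone and -0.34 without WT 1 (limma adjusted p = 0.0127). Slc11a1, the phagosomal metal transporter NRAMP1, was at 842, 878 and 1014 in KO and 1008, 1275 and 1218 in WT, where KO 3 and WT 1 crossed. The Slc11a1 log2 difference was -0.35 ± 0.11 (SE, limma adjusted p = 0.158), -0.15 against WT 1 alone and -0.46 without WT 1 (limma adjusted p = 0.0228).

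Genes of haem synthesis, transport and breakdown had a lower KO mean in 15 of 19, against 50.9% of all genes, and a median of -0.10. Limma called 0, and 4 were lower and 0 higher at an unadjusted p under 0.05, against 9.68% and 14.7% of all genes. Alas1, which starts haem synthesis, was at 557, 549 and 650 in KO and 707, 928 and 857 in WT. Its KO libraries all lay below its WT libraries, with a log2 difference of -0.50 ± 0.12 (SE, limma adjusted p = 0.158) and -0.28 against WT 1 alone. Without WT 1 the Alas1 difference was -0.61 (limma adjusted p = 0.0093). Hmox2, the constitutive haem oxygenase, was at 613, 581 and 625 in KO and 661, 706 and 680 in WT, a log2 difference of -0.17 ± 0.051 (SE, limma adjusted p = 0.158), the same size as that of Hmox1, and -0.13 against WT 1 alone.

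The enzymes that work beside malic enzyme in NADPH supply were compared last. Of 14 tested genes of NADPH supply 11 had a lower and 3 a higher KO mean, against 50.9% of all genes with a lower one, and the median was -0.11. Limma called 0, and 1 was higher and 4 lower at an unadjusted p under 0.05, against 14.7% and 9.68% of all genes. Aldh1l1, a cytosolic folate enzyme that yields NADPH, was at 354, 375 and 378 in KO and 412, 450 and 428 in WT. Aldh1l2, its mitochondrial counterpart, was at 589, 599 and 493 in KO and 349, 87 and 90 in WT. WT 1 thus lay between the KO libraries and WT 2 and WT 3, as it did for Me1 and for the stromal sum. In the stromal sum WT 1 was close to KO 3, at 13920 against 14256. The Aldh1l2 log2 difference was 1.99 ± 0.54 (SE, limma adjusted p = 0.158), and it was 0.68 against WT 1 alone and 2.64 without WT 1 (limma adjusted p = 0.000368).

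**Figure D4:**
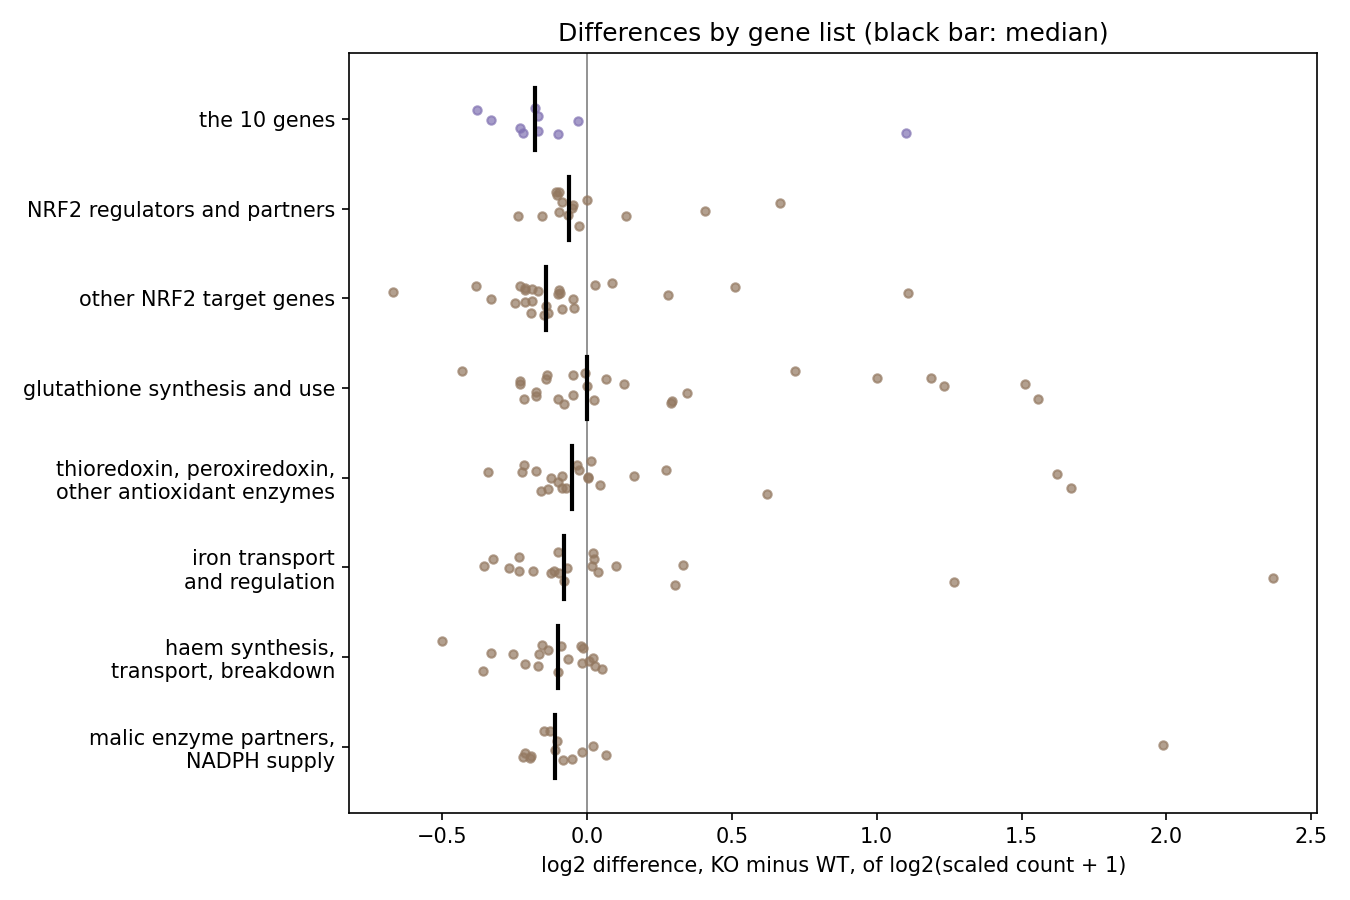
Log2 difference between KO and WT libraries (horizontal axis) for every tested gene of the 10 genes and of the 7 lists around them, with a black bar for each median. The medians run from -0.18 for the 10 genes to -0.00 for the glutathione list, and single genes reach 2.37 in the iron list.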

How the data were processed

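Poly(A) RNA-seq of 6 libraries was analysed from 1 table with 1 value per gene and library. Per the submitters' processing notes, the tools were DESeq2 1.36.0, featureCounts 2.0.3, Picard 2.27.4, STAR 2.7.10a and Trimmomatic 0.39 on mm10, with no role given for any. The authors' deposited values were taken as a score, meaning read counts rescaled per library and rounded, because totals were nearly equal and the values 6, 17, 29, 40 and 52 never occur in WT 2. Exact reads are lost and depth in reads is unknown, so no count model and no counting interval is given. The count test fixed for raw counts was therefore not used.

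Genes with at least 10 in at least 3 libraries (13260) were fitted with limma 3.58.1 (R 4.3.3), intensity trend, on log2(value + 1), which understates the change of low genes. Differences are KO minus WT. Exonic lengths came from GENCODE M21, where 17297 genes were found and 99.1% had the same start and end. No gene had a mean above 1 scaled count per exonic base (highest 0.85). Whether duplicate reads were removed is not stated in any source used here, and its effect on abundant messages, such as those of ferritin and Hmox1, was not tested. Lengths and counts used pandas 2.3.3 under Python 3.11.15, and the fit was checked on simulated data.

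The 10 genes, the lists and the alternatives were chosen with earlier results of these data known. Named besides the 10 are Hdac2, Keap1, Bach1, Nqo1, Slc7a11, Tfrc and Slc40a1, and up to 2 genes with the smallest p from each list. Maff, Bach2 and Gstm1 (added after their values were seen) and marker genes are named as well. Lyz2, also named by the rule, was at 942 ± 11.5 in KO and 1089 ± 48.1 in WT (SD, n = 3 each), and was lower in every KO library. Lists share some genes.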

Additional observations from a re-analysis of the deposited data

How the results depend on the processing

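Over 17 alternatives 9 of the 10 genes kept the sign of their difference, and Gclm ran from -0.09 to 0.07 when 1 library was left out (0.07 without WT 3) and turned to 0.05 with the high-Xist libraries only (KO 1 to 3 and WT 1), 0.005 under cyclic loess and 0.08 with WT 2 as the only WT library. That last fit was added after the data were seen. Other scalings, pseudocounts of 0.5 and 8, filters and the absence of a trend gave 0 called genes, as did leaving out any library but WT 1. Without WT 1, 1691 genes were called higher and 672 lower, and with WT 2 as the only WT library 1567 and 546. The cause was not tested. Of the 10 genes, leaving out 1 library gave 0 to 1 called higher and 0 to 4 lower, and the WT 2 fit gave 1 and 3.

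In the lists, leaving out 1 library gave between 0 and the following counts, reached without WT 1. These were 1 higher for the regulators, 1 higher and 6 lower for other NRF2 targets, 5 and 2 for glutathione, 3 and 3 for other antioxidant enzymes, 2 and 3 for iron, 3 lower for haem, and 1 and 2 for NADPH supply. The WT 2 fit gave 1 higher and 5 lower for other NRF2 targets, 4 and 1 for glutathione, 2 and 1 for other antioxidant enzymes, 2 and 4 for iron, 3 lower for haem, and 1 higher for NADPH supply. List medians moved beyond the spread between replicates to 0.01 (cyclic loess), -0.00 (high-Xist only) and -0.13 (WT 2 fit) for the regulators, and to -0.06 (high-Xist only) and -0.26 (WT 2 fit) for other NRF2 targets. The haem median moved to -0.20 (WT 2 fit), and that of NADPH supply to -0.05 (cyclic loess and high-Xist only) and -0.20 (WT 2 fit).

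Small differences of Bach1 turned to 0.03 (cyclic loess) and 0.05 (high-Xist only), those of Slc7a11 to 0.20 without KO 3, 0.09 without WT 3 and 0.22 (WT 2 fit), and those of Tfrc to 0.02 without WT 3 (from -0.21 to 0.02 when 1 library was left out) and 0.19 (WT 2 fit). The 2 fits with 1 WT library assume that it varies as the KO libraries do. Same-numbered libraries deviated from their group means with r of 0.534, -0.364 and 0.0238, and KO 2 correlated best with WT 1. With 3 libraries in each group, these values cannot decide whether the numbers mark pairs. With the replicate block 0 genes were called and the log2 difference was -0.38 for Srxn1 (adjusted p = 0.134) and 1.10 for Me1 (adjusted p = 0.134).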
